A study of Mus musculus with 4 samples.

Results

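The Notch pathway was followed through 10 genes, the 4 receptors Notch1, Notch2, Notch3 and Notch4, the ligands Jag1, Jag2 and Dll1, and the target genes Hes1, Hey1 and Heyl. The members were chosen by symbol, and each was read from the probe set that the array annotation pairs with that symbol alone. All 10 had exactly 1 such probe set, out of 19938 genes tested on the arrays. The cells were ATDC5, an established mouse line of cartilage progenitors that differentiates in culture. The day 15 group (2 arrays) had been given insulin, transferrin and selenite for 15 days in DMEM/F12 medium with fetal bovine serum, glutamine, an antibiotic mix and ascorbic acid. The day 0 group (2 arrays) was held undifferentiated in the same basal medium without that supplement. Time in culture and the supplement cannot be told apart, since no cells were kept for 15 days without it. ATDC5 is 1 established line, and nothing in the labels tells whether the 2 samples of a day are separate cultures, so the p-values here reflect the spread between arrays, possibly a technical one.

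Notch receptors are single-pass membrane proteins that bind ligands of the Jagged and Delta-like families on neighbouring cells. Binding lets ADAM proteases and then the gamma-secretase complex cut the receptor, and its intracellular domain moves to the nucleus, joins the DNA-binding protein RBPJ and Mastermind-like coactivators, and switches on repressors of the Hes and Hey families. In the growth plate of the mouse, Notch signaling is known to regulate the passage from progenitor to proliferating and hypertrophic chondrocyte, and sustained signaling restrains Sox9 and the cartilage matrix genes.

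Of the 10 members, only Hey1 was called, and it fell by 1.25 on the log2 scale at day 15. None was called higher. The 3 ligands and 4 receptors had differences between -0.12 and 0.57, and Hes1 differed more between the 2 arrays of day 0 than between the days. Among 58 other measured genes of the pathway 1 was called, the atypical ligand gene Dlk2, which was also lower at day 15. A gene was called where limma's Benjamini-Hochberg adjusted p over all 19938 genes was below 0.05. By that rule 1.72% of all genes were called, 1.3% higher and 0.411% lower at day 15. Values below are log2 of the processed intensity plus 1 after quantile normalization, and a difference is day 15 minus day 0 on that scale. No detection call was used, so dim probe sets may lie at background, where differences look smaller than they are. Brightness depends on the probe set, so levels are compared between arrays and not between genes.

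**Figure D1:**
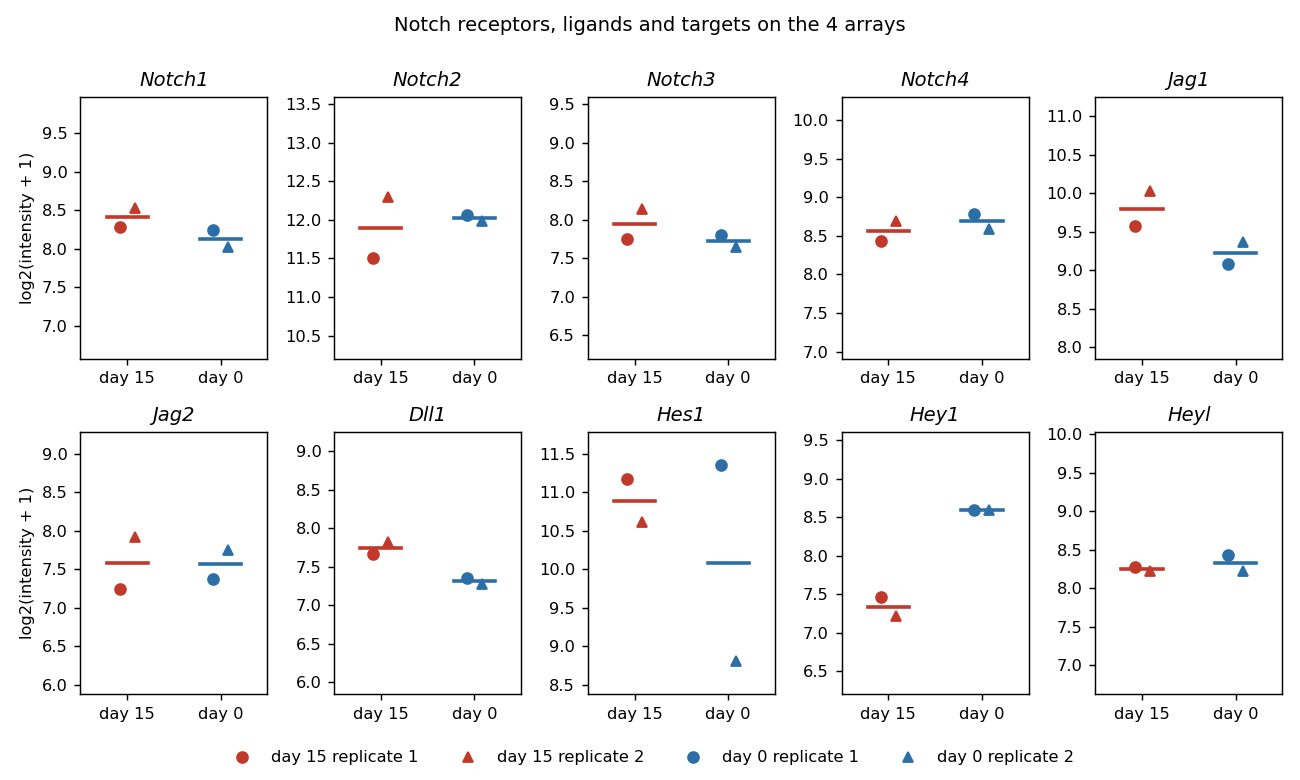
Each panel shows 1 member, with log2(intensity + 1) on the vertical axis (the same span in every panel) and the 2 arrays of day 15 left of the 2 arrays of day 0. Circles are replicate 1, triangles are replicate 2 and bars are group means. Hey1 is the member whose days lie farthest apart relative to its spread, and Hes1 is low on 1 day 0 array, at 8.80.

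The state of the cells was checked with marker lists. All 9 chondrocyte markers had both day 15 arrays above both day 0 arrays, and 6 were called higher, namely Col2a1, Acan, Hapln1, Matn1, Col11a1 and Col10a1. Among all genes 22.3% had day 15 above in this way and 1.3% were called higher. Sox9, the main transcription factor of the lineage, had 12.26 and 12.75 at day 15, against 12.19 and 11.88 at day 0, and was not called. The 2 arrays of replicate 1, 1 of each day, stood apart in 12 macrophage markers: 10 were brighter in replicate 1 on both days, 7 of them by at least 1 log2. The widest gap was that of C1qb, with 11.11 and 5.80 on the day 15 arrays of replicates 1 and 2. On the day 0 arrays C1qb had 11.36 and 6.09. The summed linear intensity of all 12 markers was 11550 and 4060 on the day 15 arrays of replicates 1 and 2, against 10860 and 2471 on the day 0 arrays. None of the 12 was called between the days, but 2 were higher at day 15 in both replicates by over 0.8 log2: Lyz2 had 11.07 and 10.38 at day 15 and 10.19 and 8.88 at day 0, and Cd68 had 10.66 and 9.24 at day 15 and 9.41 and 8.10 at day 0. Fcer1g had 10.55 and 9.85 at day 15 and 10.68 and 8.77 at day 0. Only Lyz2, Cd68 and Fcer1g of the 12 had a positive difference of the day means. The other 9 were negative, and the median over the 12 was -0.17. Of 12 endothelial markers, all averaged below the median of all genes and none was called; their sum was 2425 and 2242 at day 15 and 2264 and 2175 at day 0. Egfl7 and Esam had the highest means over the 4 arrays. Of 12 mural and smooth muscle markers none was called either; their sum was 31790 and 33000 at day 15 and 31810 and 36720 at day 0, of which Acta2 and Pdgfrb had the highest means over the 4 arrays. The lowest deposited intensity of any probe set was 0.72, so a value above 0 does not show that a marker was detected. In RNA of a whole culture, fewer cells of a type and less RNA per cell cannot be told apart.

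Among the receptors, Notch1 (probe set 10481056), a broadly expressed receptor of the mesenchyme, had 8.29 and 8.53 on the day 15 arrays of replicates 1 and 2, against 8.24 and 8.02 on the day 0 arrays. Both day 15 arrays lay above both day 0 arrays, the nearest by a narrow margin. The difference was 0.28 ± 0.19 (SE), with a 95% interval of -0.18 to 0.74, and did not pass (limma adjusted p = 0.704). Notch2 (10494595), a receptor active in limb mesenchyme of mice, had 11.50 and 12.30 at day 15 and 12.06 and 11.98 at day 0. The day 15 arrays lay on either side of the day 0 pair, so the groups overlapped. Its difference was -0.12 ± 0.28 (SE), with an interval of -0.82 to 0.58 (limma adjusted p = 0.964). Within replicate 1 alone the Notch2 difference was -0.56 and within replicate 2 alone it was 0.32.

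Notch3 (10449775), a receptor known from vascular mural cells, had 7.75 and 8.15 at day 15 and 7.80 and 7.65 at day 0. The groups overlapped, and the difference of 0.22 ± 0.20 (SE) did not pass (limma adjusted p = 0.821). It was -0.05 within replicate 1 and 0.50 within replicate 2, and ran from 0.024 to 0.42 when any 1 array was left out. Notch4 (10444352), a receptor known mainly from endothelium, had 8.43 and 8.70 at day 15 and 8.79 and 8.59 at day 0. These groups overlapped too, with a difference of -0.12 ± 0.19 (SE; limma adjusted p = 0.926). The intervals of Notch3 (-0.28 to 0.72) and Notch4 (-0.58 to 0.34) leave room for changes in either direction of up to these sizes.

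The ligands had differences at or above 0, and none passed over all genes. Jag1 (10488060), a Jagged ligand of many tissues, had 9.58 and 10.03 at day 15 and 9.09 and 9.37 at day 0. Both day 15 arrays were higher than both day 0 arrays. The difference of 0.57 ± 0.22 (SE), or 1.49-fold, had an interval of 0.03 to 1.12 and did not pass (limma adjusted p = 0.382). Dll1 (10448034), a Delta-like ligand, had 7.67 and 7.82 at day 15 and 7.36 and 7.28 at day 0, also without overlap. Its difference was 0.42 ± 0.17 (SE), or 1.34-fold (interval 0.01 to 0.83, limma adjusted p = 0.391). Jag2 (10402808), the second Jagged ligand, had 7.25 and 7.91 at day 15 and 7.38 and 7.75 at day 0. On both days replicate 2 was the higher array, the days overlapped, and the difference was 0.02 ± 0.27 (SE; limma adjusted p = 0.996).

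Of the 3 targets, Hey1 was called. Hey1 (10497203), a basic helix-loop-helix repressor induced by Notch and also by BMP signaling, had 7.47 and 7.22 on the day 15 arrays, against 8.59 and 8.60 on the day 0 arrays. Every day 15 value lay more than 1 log2 below every day 0 value, and the day 0 arrays were nearly equal. The group means were 7.34 ± 0.17 at day 15 and 8.59 ± 0.0053 at day 0 (SD, n = 2 arrays each). Hey1 thus fell by 1.25 on the log2 scale with an SE of 0.17, which is 2.38-fold lower (interval -1.68 to -0.82, limma adjusted p = 0.0344). By absolute difference it ranked 499 of 19938 genes. The probe set lay below the median brightness of all genes on every array, in deposited intensities 166.33 and 154.91 at day 15 and 358.42 and 391.03 at day 0. The difference was -1.12 within replicate 1 and -1.38 within replicate 2, the replicate with the lower macrophage markers; with 1 array a day these 2 values carry no test.

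The call of Hey1 needs all 4 arrays. Its difference stayed between -1.38 and -1.13 when any 1 array was left out, but limma's adjusted p was then 0.0868 (replicate 1 of day 15 left out), 0.114 (replicate 2 of day 15), 0.105 (replicate 1 of day 0) or 0.123 (replicate 2 of day 0). In such a fit only the day that keeps its pair gives a spread of the gene's own, which limma then moderates with that of all genes.

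Hes1 (10434925), the repressor that is the best known direct Notch target, had 11.17 and 10.61 at day 15 and 11.36 and 8.80 at day 0. One day 0 array, replicate 2, was low, and the other was the highest of the 4. The means were 10.89 ± 0.40 at day 15 and 10.08 ± 1.80 at day 0 (SD, n = 2 arrays each), and the difference of 0.81 ± 0.78 (SE) had an interval from -1.13 to 2.74 (limma adjusted p = 0.836). The value rests on that array: without day 0 replicate 2 the difference was -0.47 (limma adjusted p = 0.85), and without day 0 replicate 1, which leaves the low array as the only one of day 0, it was 2.08 and called (limma adjusted p = 0.0351). Within replicate 1 it was -0.19 and within replicate 2 it was 1.80. Most macrophage markers were also low on the replicate 2 arrays, on both days. Hes1 was at 10.61 on the day 15 array of replicate 2. On the day 15 and day 0 arrays of replicate 2 the marker Fcer1g was at 9.85 and 8.77, and C1qb at 5.80 and 6.09. The part of the macrophage markers in the Hes1 values was not tested.

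Heyl (10507840), the third Hey family gene, known from vascular smooth muscle, had 8.27 and 8.22 at day 15 and 8.43 and 8.22 at day 0. The groups overlapped, and the difference was -0.08 ± 0.17 (SE), with an interval of -0.51 to 0.34 (limma adjusted p = 0.953).

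**Figure D2:**
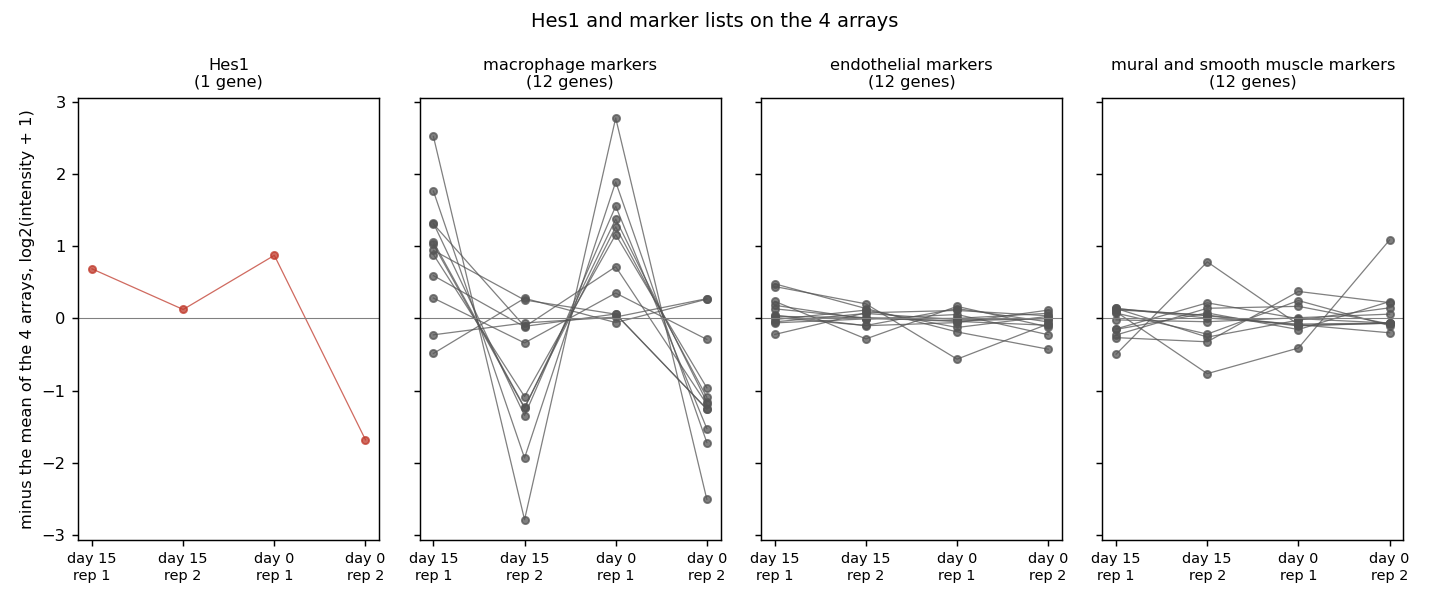
Values of Hes1 and of 3 marker lists on the 4 arrays, each gene as log2(intensity + 1) minus its own mean over the arrays, with the day 15 arrays left of the day 0 arrays (rep is the replicate number; lines join the values of 1 gene). Most macrophage markers are high on the replicate 1 array of both days, Hes1 is low on day 0 replicate 2 alone, and the endothelial markers stay within 1 log2 of their means.

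Set against all genes, 1 of 10 members was called (10%, against 1.72% of all genes), and this is Hey1 alone. The arrays of the days did not overlap in 4 members, Notch1, Jag1 and Dll1 with day 15 above and Hey1 with day 15 below. This share is close to the 40.1% of all genes whose days did not overlap (22.3% above, 17.8% below). An unadjusted p below 0.05 was reached by 3 members, Jag1, Dll1 and Hey1, and by 12.2% of all genes. The median difference was 0.12 over the members and 0.02 over all genes, and the median absolute difference was 0.25 over the members and 0.16 over all genes.

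**Figure D3:**
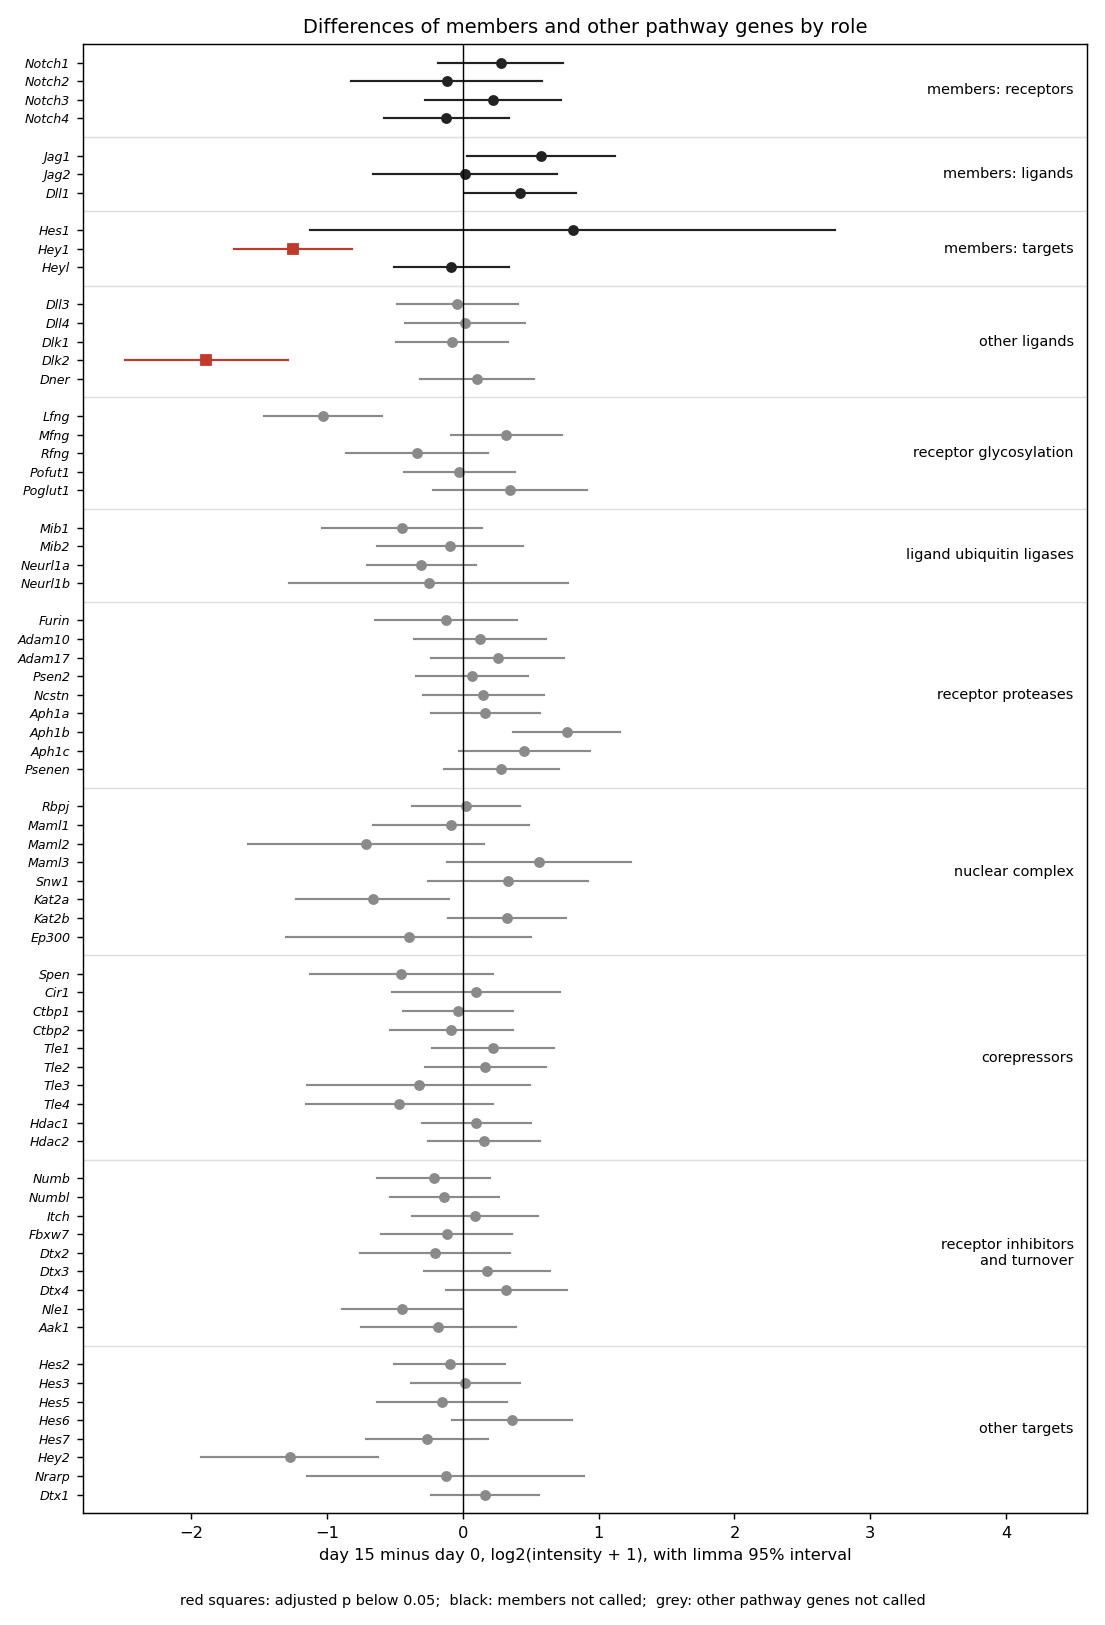
Day 15 minus day 0 difference (horizontal axis, log2(intensity + 1)) with limma's 95% interval for the 10 members and 58 other pathway genes, grouped by role from top to bottom. Red squares are genes with an adjusted p below 0.05, which are Hey1 and Dlk2. Lfng and Hey2 lie below -1 without passing.

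Other genes of the pathway were read by role, 58 measured of 61 listed. None was called higher, 1 was called lower and 57 were not called, so that 1.72% were called, as among all genes. Their median difference was -0.04, and 5 of the 58 had an unadjusted p below 0.05.

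Of the 5 other ligand genes, Dlk2 was called. It encodes a membrane protein related to the Delta-like ligands that lacks their receptor-activating DSL domain and that has been described as an inhibitor of Notch in cultured mouse cells. Dlk2 had 9.34 and 9.57 on the day 15 arrays, against 11.05 and 11.64 on the day 0 arrays. The days were separated by more than 1 log2, with a wider spread at day 0. Dlk2 fell by 1.89 on the log2 scale with an SE of 0.24, which is 3.71-fold lower (limma adjusted p = 0.0286). The call was lost when either day 15 array was left out (limma adjusted p = 0.116 for replicate 1 and 0.0706 for replicate 2) or day 0 replicate 2 was (0.0518). Dll3, Dll4, Dlk1 and Dner had differences between -0.08 and 0.10, the largest being that of Dner, a neuronal ligand (0.10 ± 0.17, SE).

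Among the 5 genes that glycosylate Notch receptors none was called. Lfng, the Fringe enzyme that elongates O-fucose on Notch and shifts its choice of ligand, had 10.03 and 10.29 at day 15 and 11.19 and 11.19 at day 0. The days were separated, and the difference of -1.03 ± 0.18 (SE) just missed the threshold (limma adjusted p = 0.0646). Poglut1, which adds O-glucose to the receptors, differed by 0.35 ± 0.23 (SE; limma adjusted p = 0.696).

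None of the 8 genes listed as other targets, which include further Hes family genes, was called. Whether Notch induces each of them was not tested here. Hey2, the second Hey family repressor, had 7.49 and 7.16 at day 15 and 8.28 and 8.93 at day 0. Its difference of -1.28 ± 0.27 (SE) was as large as that of Hey1, but the day 0 arrays differed more from each other, and it did not pass (limma adjusted p = 0.112). Hes6, a Hes family gene known for opposing Hes1, differed by 0.36 ± 0.18 (SE; limma adjusted p = 0.53). The feedback inhibitor Nrarp and the target Hes5 differed by -0.13 ± 0.41 and -0.16 ± 0.19 (SE).

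Promoter windows from RefSeq (GRCm38.p6), from 250 bases before to 50 after a gene's start, were matched by symbol for 7 of the 10 members and for 50 of the 61 other genes; Hes1, Hey1 and Heyl were among the members not matched. The windows were searched on both strands for TGGGAA, the core of the RBPJ recognition sequence, and for the longer GTGGGAA, which contains it. The core was found in 25.6% of all 32851 windows and the longer form in 6.38%. None of the 8 member windows held the core. Of 67 windows of the other pathway genes, 19 held the core and 7 the longer form. The windows below are those of the called gene Dlk2 (2 annotated starts), of Hey2 and Lfng, which had the next largest differences among the other pathway genes, and of Jag1, the member with the largest difference among those with a window. Each is written 5′ to 3′ on the gene's strand, with the core or its reverse complement in capitals.
Hey2 (GRCm38.p6, chr10:30842734-30843033, minus strand): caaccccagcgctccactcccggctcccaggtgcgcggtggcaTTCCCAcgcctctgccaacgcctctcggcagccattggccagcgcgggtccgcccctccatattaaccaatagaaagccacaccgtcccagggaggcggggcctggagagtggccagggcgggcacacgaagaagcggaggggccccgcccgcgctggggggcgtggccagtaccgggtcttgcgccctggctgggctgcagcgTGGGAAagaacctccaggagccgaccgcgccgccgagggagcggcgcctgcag
Lfng (GRCm38.p6, chr5:140607091-140607390, plus strand): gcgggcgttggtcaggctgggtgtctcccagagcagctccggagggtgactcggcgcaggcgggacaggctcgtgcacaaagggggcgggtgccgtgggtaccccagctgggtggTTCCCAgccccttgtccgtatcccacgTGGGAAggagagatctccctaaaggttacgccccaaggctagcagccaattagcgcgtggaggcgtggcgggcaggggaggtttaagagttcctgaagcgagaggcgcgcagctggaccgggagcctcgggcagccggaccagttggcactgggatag
Dlk2 (GRCm38.p6, chr17:46297233-46297532, plus strand): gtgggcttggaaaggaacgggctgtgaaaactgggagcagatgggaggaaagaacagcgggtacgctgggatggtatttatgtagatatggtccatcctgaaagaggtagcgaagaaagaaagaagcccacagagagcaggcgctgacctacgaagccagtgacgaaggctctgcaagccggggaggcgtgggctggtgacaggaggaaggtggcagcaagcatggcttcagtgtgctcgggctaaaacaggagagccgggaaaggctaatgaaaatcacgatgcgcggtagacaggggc
Dlk2 (GRCm38.p6, chr17:46297678-46297977, plus strand): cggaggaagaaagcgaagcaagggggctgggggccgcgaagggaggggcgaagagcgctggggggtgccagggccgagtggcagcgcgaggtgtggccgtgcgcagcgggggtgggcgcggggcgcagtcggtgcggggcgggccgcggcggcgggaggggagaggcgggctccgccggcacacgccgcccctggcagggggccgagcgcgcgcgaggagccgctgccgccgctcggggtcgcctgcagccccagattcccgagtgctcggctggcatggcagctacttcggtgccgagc
Jag1 (GRCm38.p6, chr2:137116471-137116770, minus strand): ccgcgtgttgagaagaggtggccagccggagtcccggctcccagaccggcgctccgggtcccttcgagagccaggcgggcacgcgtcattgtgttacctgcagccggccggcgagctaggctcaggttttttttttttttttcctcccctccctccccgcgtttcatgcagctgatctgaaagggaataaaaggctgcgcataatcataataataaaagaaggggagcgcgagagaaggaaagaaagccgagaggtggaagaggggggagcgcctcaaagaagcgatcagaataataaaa
The Hey2 window held the core at 2 places, beginning 207 and 3 bases before the start, both within the longer form. The Lfng window held it at 2 places, 135 and 108 bases before the start, of which the nearer was within the longer form. The Dlk2 and Jag1 windows held none. A match describes these letters and does not show that RBPJ binds there.

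Of 9 measured protease and gamma-secretase genes none was called, 8 had a positive difference and the median was 0.17. In 4 of the 9 both day 15 arrays lay above both day 0 arrays, and in none below. Among all 19938 genes 10602 had a positive difference, and the day 15 arrays lay above in 22.3% and below in 17.8%. Aph1b, a gamma-secretase subunit, had 10.62 and 10.59 at day 15 and 9.80 and 9.88 at day 0. Its arrays were tight within each day, and the difference of 0.76 ± 0.16 (SE) did not pass (limma adjusted p = 0.116). Its close paralogue Aph1c differed by 0.45 ± 0.20 (SE; limma adjusted p = 0.451), and whether their probe sets tell the 2 genes apart was not examined.

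In the nuclear complex of 8 genes none was called. Rbpj, the DNA-binding protein itself, had 12.87 and 12.96 at day 15 and 12.91 and 12.87 at day 0, a difference of 0.02 ± 0.16 (SE) with an interval of -0.38 to 0.42. The largest differences were those of the coactivator Maml2 (-0.71 ± 0.35, SE; limma adjusted p = 0.53) and of the acetyltransferase Kat2a (-0.67 ± 0.23, SE; limma adjusted p = 0.316). With any 1 array left out Maml2 ran from -1.24 to -0.19 and Kat2a from -0.94 to -0.39, so their order rests on single arrays. It also rests on the probe set kept for Maml2. A second Maml2 probe set differed by -0.30, and the mean of both by -0.51, while the coactivator Maml3 differed by 0.56. None of the 10 measured corepressor genes was called. The corepressors Spen, which binds RBPJ, and Tle4, of the Groucho family, differed by -0.45 ± 0.27 and -0.47 ± 0.28 (SE; limma adjusted p = 0.648 and 0.638). With any 1 array left out Spen ran from -0.83 to -0.078 and Tle4 from -0.84 to -0.097.

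All 4 ubiquitin ligase genes for ligand endocytosis had negative differences of the day means, none called. Of all 19938 genes 9336 had a negative difference. The shared sign did not hold within replicate 2, where Mib1, Mib2, Neurl1a and Neurl1b differed by -0.03, 0.03, -0.29 and 0.13. Within replicate 1 they differed by -0.87, -0.22, -0.33 and -0.63. Mib1, the ligase needed in the signal-sending cell, differed by -0.45 ± 0.24 and Neurl1a by -0.31 ± 0.16 (SE; limma adjusted p = 0.572 and 0.569). Of 9 genes for receptor inhibition and turnover none was called. Nle1 differed by -0.45 ± 0.18 and the Deltex ligase Dtx4 by 0.32 ± 0.18 (SE; limma adjusted p = 0.415 and 0.613).

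**Figure D4:**
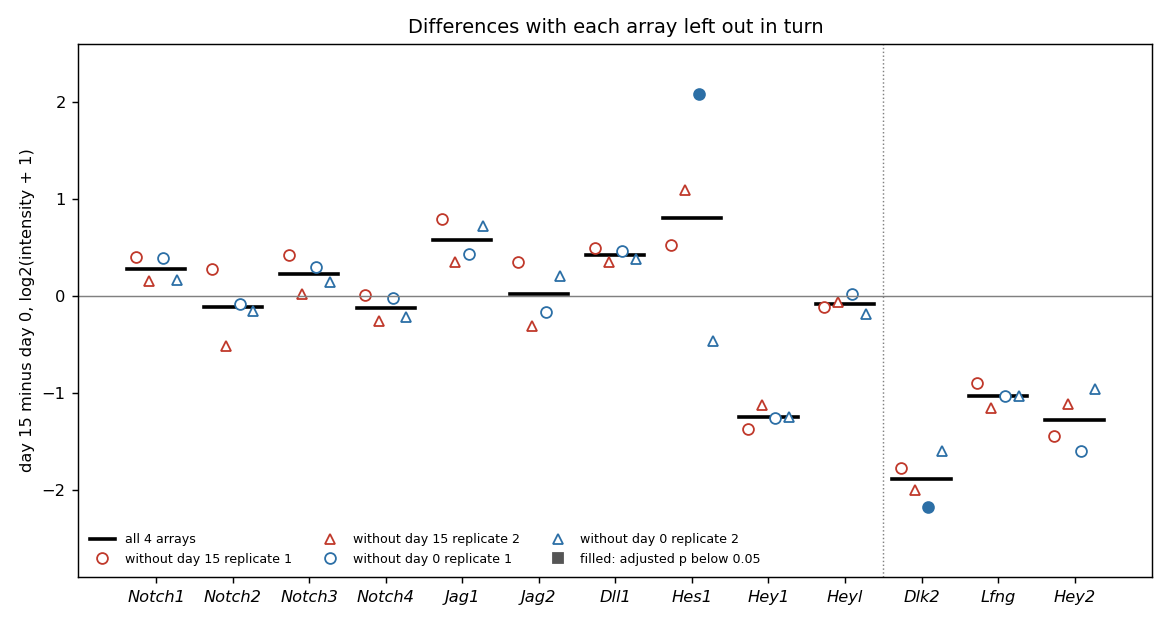
Day 15 minus day 0 difference (vertical axis, log2(intensity + 1)) of the 10 members and, right of the dotted line, of Dlk2, Lfng and Hey2, with all 4 arrays (black bars) and with each array left out in turn (red for a day 15 array, blue for a day 0 array; circles for replicate 1, triangles for replicate 2). Filled symbols have a limma adjusted p below 0.05. Hey1, Dlk2, Lfng and Hey2 stay below 0 throughout, whereas Hes1 runs from -0.47 to 2.08.

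The genes whose 4 values were most like those of a member were taken by Euclidean distance after centring each gene on its own mean, for the 3 members with the largest absolute difference. Nearest to Hey1 were Hecw1 (distance 0.07 log2), the gene model B930095G15Rik (0.0819) and Twist2, a factor of less differentiated mesenchyme (0.0951). All 3 were called lower, with differences of -1.29, -1.20 and -1.29. Nearest to Hes1 were Olfr814 (0.396), Srgn, the proteoglycan core protein serglycin of blood cells (0.404), and Magea5 (0.494), none of them called and all lowest on day 0 replicate 2. Olfr814 (1.99 to 4.34) and Magea5 (3.53 to 5.80) were dim on all 4 arrays, against a median level of 8.72 over all genes. Nearest to Jag1 were Lrrc8d (0.0659), Lhx2 (0.0704) and Cyp7a1 (0.0806), none of them called. With 4 arrays such likeness is only a description, and differences similar to the member's follow from how these genes were chosen.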

How the data were processed

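RNA of 4 ATDC5 samples, labelled with biotin, was measured on 1-colour whole-transcript arrays, per the labels' protocols. The authors deposited 1 linear processed intensity per probe set and array, from 0.72 to 23103.3; the unit was judged from the values, and for background correction, summarization and normalization the sources used here give nothing. The submitters' processing notes name build mm9. Of 35512 probe sets, 21789 have 1 gene symbol, 1621 several and 12102 none listed. The brightest probe set per gene was kept (19938 genes).

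Log2(intensity + 1) values were quantile normalized, since array medians differed by up to 0.20 log2. The difference between day 15 and day 0 was tested with limma 3.58.1 (lmFit, eBayes; R 4.3.3), Benjamini-Hochberg adjusted over all genes, threshold 0.05, and the fit was tested on simulated data. The number of arrays limits the precision. The members and lists were chosen with earlier results of these data known. The text names all members, called pathway genes, the 2 largest absolute differences per role and the 3 nearest genes of 3 members. Per marker list it names called markers and the 2 with the highest mean over the arrays. Rbpj, Nrarp, Hes5, Cd68, C1qb, Mib2 and Neurl1b were added after their values were seen. The alternatives were 3 other scalings, a variance trend, a filter on dim genes, the mean of probe sets, a pseudocount of 16, a replicate block and leaving out each array. Figures were drawn with matplotlib 3.10.9.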

Additional observations from a re-analysis of the deposited data

How the results depend on the processing

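The differences of Hey1, Dlk2, Lfng and Hey2 kept their direction under every alternative run for them. Hey1 ran from -1.38 to -1.13 and Dlk2 from -2.18 to -1.60. With all arrays 342 genes were called; refits with 1 array left out called 178 to 284 genes, 0 to 1 members and 0 to 1 other pathway genes. The 1 member called there was Hes1, without day 0 replicate 1, and Hey1 was called in none of these refits. Under the filter on dim genes (higher day mean at least the median of all genes) 10358 genes and 3 members were tested; Hey1 was not among them, so 0 members were called, and 2 other pathway genes were, with Lfng joining at an adjusted p of 0.041. With the replicate block 628 genes, 1 member and 2 other pathway genes were called, Lfng again joining (0.0398). The replicate numbers are not stated to mark a shared batch; same-numbered arrays' deviations from their day's mean correlated across genes at 0.403, with only 2 pairs. The sign of Jag2 turned with median centring (-0.0057) and with quantile normalization over probe sets of 1 symbol (-0.047). Leaving out 1 array turned the sign of 5 members in at least 1 fit, over ranges of -0.31 to 0.35 for Jag2, -0.52 to 0.28 for Notch2, -0.26 to 0.012 for Notch4, -0.19 to 0.019 for Heyl and -0.47 to 2.08 for Hes1. The cause was not tested. The within-replicate values of the members and of the ubiquitin ligase genes were added after seeing the data.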

Other observations

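A further 6 probe sets carry the symbol of Notch4 together with that of Sympk and were not tested. Their values lay between 6.55 and 7.43 on the 4 arrays, and 2 of them held the same values, while their differences between day 15 and day 0 ran from -0.07 to 0.07 log2, against -0.12 for the probe set of Notch4 alone.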
